A study of Homo sapiens with 6 samples.

Results

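Genes of cytosolic protein synthesis were examined in the transcriptome of SH-SY5Y cells given methamphetamine (METH). They were chosen by name as cytosolic ribosomal proteins, initiation and elongation factors with their modifiers, the release factor ETF1 and cytosolic aminoacyl-tRNA synthetases other than WARS, without pseudogenes and antisense genes. The deposited table of 4101 genes holds 21 of them. GENCODE release 29 lists 173 protein-coding genes whose names follow the same rule. Those that the table lacks were not analysed here. The 21 were 10 ribosomal proteins, 8 initiation genes, the elongation factor methyltransferase EEF2KMT and the synthetases IARS and QARS. No elongation factor, 4E-binding protein or release factor was among them.

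SH-SY5Y is an established human neuroblastoma line, labelled here as genotype WT and used in the study as a model of dopaminergic cells. Sequencing covered 3 samples exposed to 2 mM of the psychostimulant METH and 3 that received PBS, for 24 h by the study's methods (the labels give the time as Day 0). The labels do not say whether the 3 samples of a group came from separate experiments, so the p-values measure the spread between these samples only. The PBS columns carry the numbers 10 to 12, which name the libraries here (PBS 10, PBS 11, PBS 12), beside METH 1, METH 2 and METH 3. Values are CPM (counts scaled to the library total, per 1 M reads), and the totals that the values imply were between 85.7 and 110.77 M reads. Of the markers of neuroblastoma cells, DDC (189 ± 51.5 CPM with PBS, SD, n = 3), CHGB and ELAVL4 had values in the table. The table holds only genes that the authors selected for a difference between the groups, so presence in it does not identify the cells. These markers did not all change in the same direction with METH.

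The ribosome is built from a small subunit, which holds the messenger RNA (mRNA), and a large subunit, which joins amino acids. Initiation factors bring the small subunit to the capped mRNA, elongation factors move the ribosome along it, and the synthetases load each transfer RNA with its amino acid. Many mRNAs of ribosomal proteins and translation factors begin with an unbroken pyrimidine stretch, the terminal oligopyrimidine (TOP) motif, through which the mTORC1 kinase pathway controls their translation. Stress slows protein synthesis by another route, in which kinases such as PERK, encoded by EIF2AK3, phosphorylate eIF2 and thereby block its exchange factor eIF2B.

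The starts of the genes are shown first because the motif divides the members by sequence. RefSeq promoters (build GRCh38.p14) were found for 18 of the 21, and RPL5, EIF3E and EEF2KMT had none. A start was counted as pyrimidine-rich when its first base was C and at least 4 further C or T bases followed without a break. This was so at 1 or more starts for 10 of the 18 members. Counted per gene in the same way, it was so for 198 of the 2976 genes of the table with a promoter. Counted per promoter, it was so for 4.07% of all 35116. All 10 had a log2 fold change above 0 with METH, namely RPL21, RPL39, RPS3A, RPS13, RPS24, RPS25, RPS27A, EIF4A2, EIF4B and QARS, as had 61.1% of the 198 genes of the table with such a start. EIF4B alone of the 10 was past the threshold of the test described below (an adjusted p-value under 0.1), and the adjusted p-values of the others by limma were from 0.118 to 0.238. Of the 198 genes of the table with such a start, 81 were past the threshold upward and 50 downward. For RPS27A the motif was present at 1 of 3 listed starts. Each sequence below runs from 10 bases before the RefSeq start, 5′ to 3′ on the gene's strand, and capitals mark the pyrimidine stretch from the start base on:
RPS24 (chr10:78033853-78033882, plus strand): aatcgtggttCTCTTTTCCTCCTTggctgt
RPL39 (chrX:119791611-119791640, minus strand): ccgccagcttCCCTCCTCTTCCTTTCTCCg
RPS3A (chr4:151099618-151099647, plus strand): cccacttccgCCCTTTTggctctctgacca
RPS25 (chr11:119018324-119018353, minus strand): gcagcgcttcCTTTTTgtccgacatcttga
EIF4A2 (chr3:186783567-186783596, plus strand): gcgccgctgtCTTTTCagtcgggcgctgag
EIF4B (chr12:53006446-53006475, plus strand): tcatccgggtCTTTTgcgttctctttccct
QARS (chr3:49104738-49104767, minus strand): gcctaagtttCTTTTagtttccggtgtctc

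The other 8 members with a promoter did not meet the rule. RPS7 had a stretch of 3 bases from the RefSeq start on. The bases directly before that start were also C or T, but the rule does not count them. EIF4G1, EIF3B, EIF2B5 and IARS, which all had log2 fold changes below 0, had none at any listed start. RPS27L, EIF1B and EIF2AK3 had none either, although their log2 fold changes were above 0. Windows of the same kind, with no capitals because no stretch was found, are given for contrast:
EIF3B (chr7:2354817-2354846, plus strand): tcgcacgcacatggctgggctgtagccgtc
EIF2B5 (chr3:184135348-184135377, plus strand): cagcttccttgcggaagtggtgaccgtgag
EIF2AK3 (chr2:88627445-88627474, minus strand): tgtccgagataggctgtcactcaggtggca
RPS27L (chr15:63157458-63157487, minus strand): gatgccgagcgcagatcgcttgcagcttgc

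As a background to these starts, 2976 genes of the table had a RefSeq promoter, and 198 of them had the pyrimidine stretch. The median log2 fold change was 0.48 in these 198, and it was 0.28 in the 2778 genes without the stretch, of which 51.3% were above 0. Among the 188 genes with the stretch that are not members, 59.0% were above 0. The median ratio of PBS 11 to the mean of PBS 10 and PBS 12 was 1.28 with the stretch and 1.05 without it.

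METH was compared with PBS by limma on log2(CPM + 0.1). The p-values were adjusted over all 4101 genes, and those under 0.1, the significance level of the study, were taken as past the threshold. The paper states this level for adjusted p-values, but the deposited table was cut at an unadjusted p-value under 0.1 (largest 0.09998). That selection was made by the authors on the same libraries. A member is in the table only because it differed by that measure, and adjustment within it is lenient. Of the 21 members, 16 had a log2 fold change above 0 and 5 below 0. Past the threshold were 4 that rose (EIF2AK3, RPS27L, EIF1B and EIF4B) and 5 that fell (IARS, EIF4G1, EIF3B, EEF2KMT and EIF2B5). These 9 are 42.9% of the members, while 69.1% of all genes in the table were past it, 33.3% up and 35.8% down. The groups did not overlap in 11 members (52.4%), against 64.0% of the table. Adjusted over the 15725 genes that the authors' adjustment implies, EIF2AK3 alone of the 21 stayed past the threshold, against 15.2% of the table. At an unadjusted limma p-value under 0.05 there were 4 members up and 4 down. The 4 and 5 calls became 1 and 0 without METH 1 (2 and 0 at an unadjusted p under 0.05), 2 and 0 without METH 2 (2 and 1), and 3 and 1 without METH 3. Leaving out PBS 12 gave 2 and 1, and leaving out PBS 10 gave 2 and 5. Leaving out PBS 11 moved the 4 and 5 calls to 16 and 3, against 37.8% up and 33.4% down over the table. For the other fits without a library, and at the unadjusted p-value, the share of all genes called is not given here. Those counts therefore do not show whether the members lost calls more often than the table. RNA amounts per cell and cell numbers cannot be told apart in bulk CPM.

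**Figure D1:**
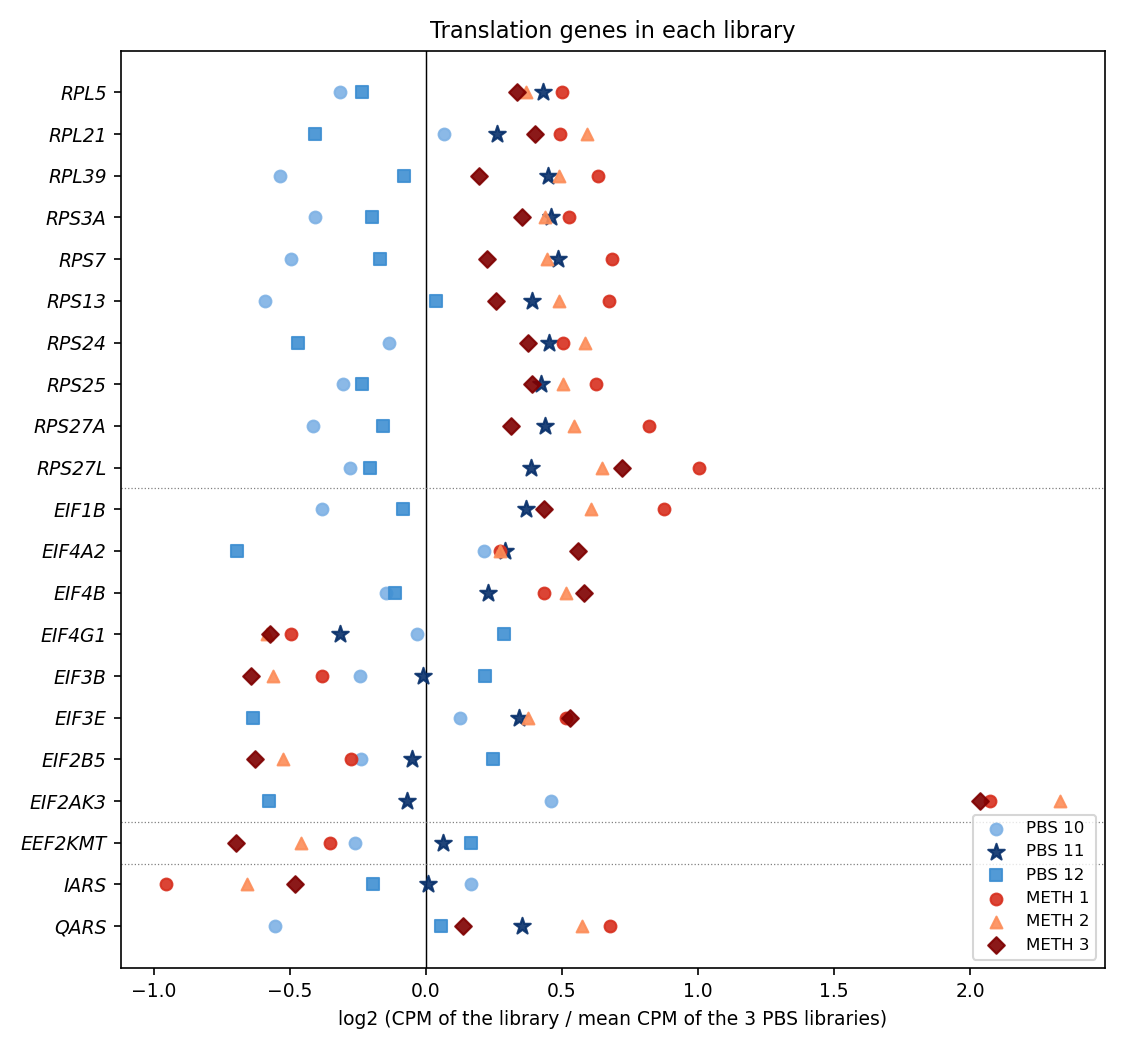
Level of the 21 translation genes in each library, as log2 of its CPM over the mean CPM of the 3 PBS libraries, grouped by dotted lines into ribosomal proteins, initiation genes, EEF2KMT and synthetases. In the ribosomal protein genes the PBS 11 stars lie among or close to the METH symbols and to the right of PBS 10 and PBS 12, whereas for EIF2AK3 the METH libraries stand far to the right of every PBS library.

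GENCODE lists 85 ribosomal protein genes by the rule, and the table, cut by the authors' p-value, holds 10 of them. It holds 4101 of the 15725 genes that the authors' adjustment implies. What follows therefore covers only these 10 and not ribosomal protein genes as a whole. The 10 ribosomal protein genes shared 1 pattern. Each had a higher mean with METH, with log2 fold changes from 0.44 to 0.82 (median 0.52, against 0.11 over the table and 0.68 over its genes above 0). RPS27L alone was past the threshold (10.0% of the group). In every one of the 10, PBS 11 was the highest PBS library, and in 8 of them it lay inside or above the METH range. Among all genes of the table above 0, PBS 11 was the highest PBS library in 59.0% and reached the METH range in 29.6%. Summed over the 10 genes, the level was 12579 CPM in PBS 10, 21772 in PBS 11 and 13926 in PBS 12, and 24530.2, 22743 and 19906 CPM in METH 1, METH 2 and METH 3. PBS 11 therefore lay between METH 3 and METH 2.

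Among large subunit proteins, RPL39 was the most abundant per length, at 7537 CPM per kb of principal transcript with PBS. It was at 2085, 4123 and 2859.6 CPM in PBS 10, PBS 11 and PBS 12, and at 4678, 4237 and 3460.3 CPM in METH 1, METH 2 and METH 3. The groups overlapped through PBS 11 (log2 fold change 0.49, 95% interval -0.36 to 1.35, limma adjusted p = 0.238). RPL5, which with RPL11 and 5S ribosomal RNA can bind MDM2 and so stabilise p53, was at 694, 1164 and 735 CPM with PBS and 1221, 1115 and 1090.1 CPM with METH. Here PBS 11 exceeded METH 2 and METH 3 (log2 fold change 0.44, limma adjusted p = 0.180). RPL21 was at 1014, 1161 and 730.4 CPM with PBS and 1362, 1458 and 1279.6 CPM with METH. Its groups did not overlap, but the adjusted p-value was above 0.1 (log2 fold change 0.52, limma adjusted p = 0.126).

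Small subunit proteins varied in the same way. RPS7 was at 1750.0, 3457 and 2197 CPM with PBS and 3959, 3359 and 2881 CPM with METH. PBS 11 thus held 1.75 times the mean of the other PBS libraries, the largest such ratio among the 21 members (the 10 ribosomal genes ranged from 1.33 to 1.75). RPS24, at 2494, 3755 and 1978 CPM with PBS and 3892, 4113 and 3554 CPM with METH, differed by 0.54 on the log2 scale (limma adjusted p = 0.187). RPS3A was at 1369, 2495 and 1585 CPM with PBS and 2613, 2459 and 2318 CPM with METH (log2 fold change 0.49, limma adjusted p = 0.194). In both genes METH 3 lay below PBS 11, and in RPS3A METH 2 did so too.

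For RPS13 the PBS libraries gave 812, 1601 and 1253 CPM and the METH libraries 1950.4, 1716 and 1460.1 CPM (log2 fold change 0.53, limma adjusted p = 0.165). RPS25 gave 1548, 2559 and 1624 CPM against 2942, 2710.0 and 2502 CPM (log2 fold change 0.54, limma adjusted p = 0.153). RPS27A, which is made as a fusion of ubiquitin and a ribosomal protein, gave 772, 1391 and 922 CPM against 1814, 1498 and 1278 CPM (log2 fold change 0.60, limma adjusted p = 0.118). These 3 genes were not past the threshold either, and in each of them METH 3 lay below PBS 11.

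RPS27L (ENSG00000185088, chromosome 15, 63125872 to 63158021), a paralogue of RPS27 and a known p53 target, was the least abundant of the 10 per length (7.69 CPM per kb with PBS). It was at 40.8, 64.7 and 42.9 CPM in the PBS libraries and at 99.1, 77.5 and 81.5 CPM in the METH libraries. All METH values were above all PBS values. The mean rose from 49.5 ± 13.2 to 86.0 ± 11.5 CPM (SD, n = 3 each). On the log2 scale it rose by 0.82 with a standard error of 0.234 (limma adjusted p = 0.0311). It was past the threshold in 5 of the 6 fits that each left out a library, with the exception of the fit without METH 1 (adjusted p = 0.106). LACTB overlaps it on the other strand.

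Because PBS 11 recurs in these genes, the comparison without it is given for all of them. All 10 ribosomal genes then had groups that did not overlap and were past the threshold, with log2 fold changes from 0.66 in RPL21 to 1.03 in RPS27L and limma adjusted p-values up to 0.0750 in RPL39. The 6 further members above 0 were also past it, which makes 16 of 16. Over the table, 33.3% of all genes (1366) were called higher with all libraries and 37.8% (1551) without PBS 11. These shares are of all 4101 genes, of which 2066 were above 0 with all libraries. They are therefore not of the same kind as 16 of 16, which counts only members above 0. PBS 11 was the highest PBS library in 15 of the 16 members, so leaving it out lowers their PBS mean. Over the table, 61.5% of the genes above 0 had groups that did not overlap with all libraries and 80.3% without PBS 11. Nothing in the labels sets PBS 11 apart, its denominator was 86.8 M reads, and the fit with all libraries is kept as the result.

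**Figure D2:**
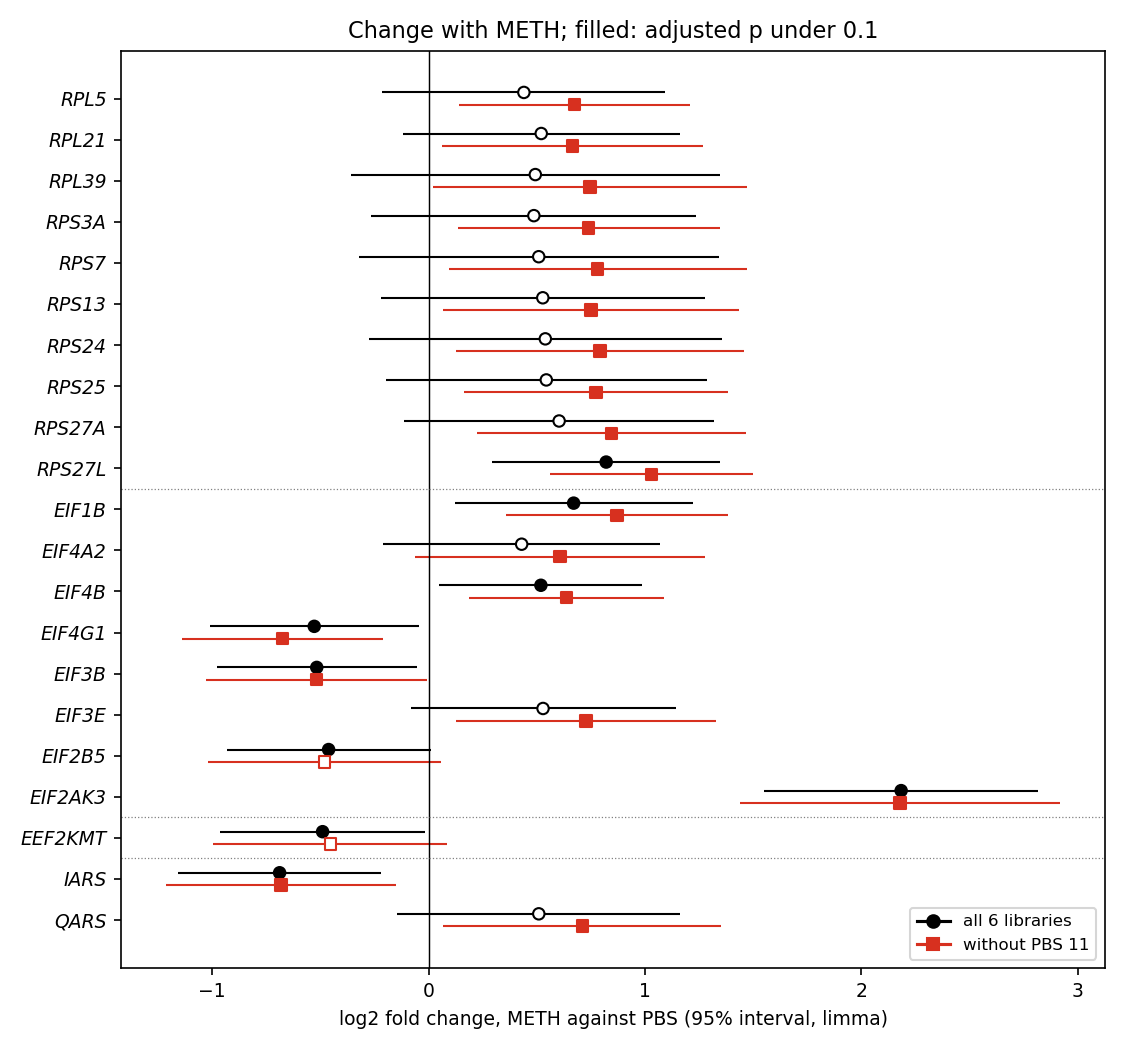
Log2 fold change of METH against PBS by limma with its 95% interval for the 21 translation genes, with all 6 libraries (black circles) and without PBS 11 (red squares), where filled symbols have an adjusted p-value under 0.1. Among the ribosomal proteins only RPS27L is filled with all libraries, and all 10 are filled without PBS 11.

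Transcript length moved with these values. The principal transcripts of the ribosomal genes were at most 1056 nt long, except for 6434 nt in RPS27L. In the table, genes with a principal transcript of up to 1000 nt had a log2 fold change above 0 in 68.6% (153 genes), and the share was 60.9% from there to 2000 nt, 55.1% to 4000 nt and 44.9% above that. The ratio of PBS 11 to the mean of PBS 10 and PBS 12 had a median of 1.24 in the shortest class and 0.955 in the longest. Of the members, 8 of 8 were above 0 in the shortest class, 4 of 4 in the second, 1 of 4 in the third and 3 of 5 in the longest. The part of length in the members' changes was not tested.

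**Figure D3:**
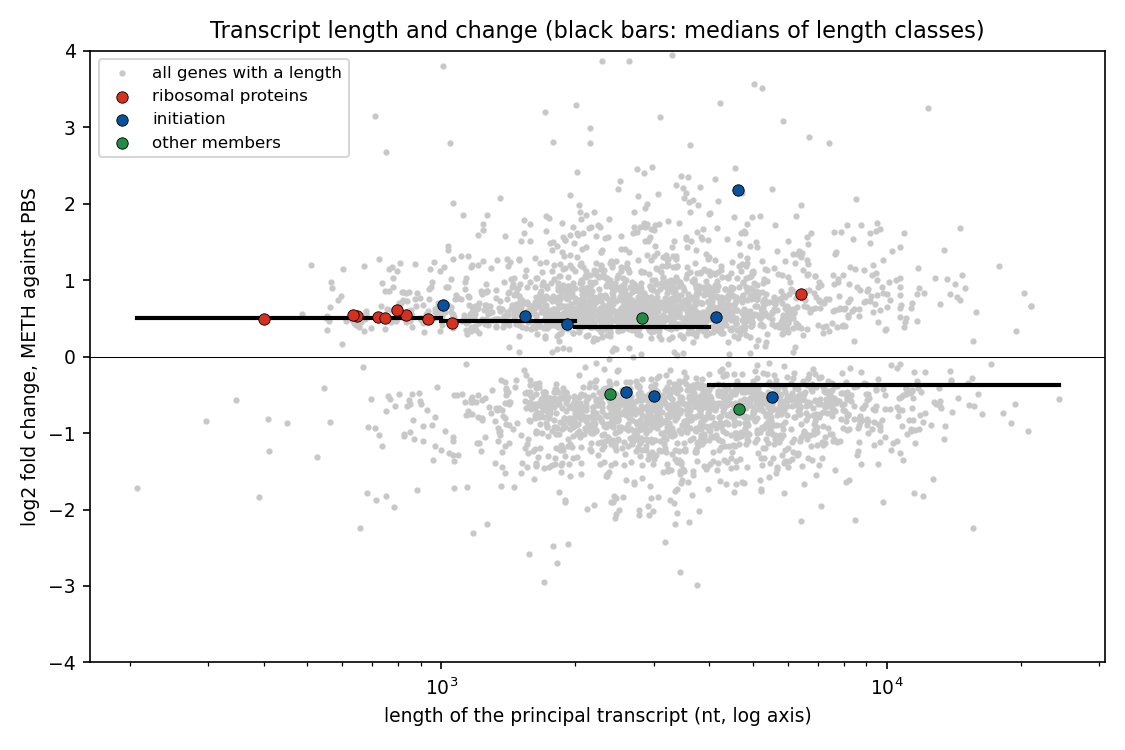
Length of the principal transcript (nt, log axis) against the limma log2 fold change of METH against PBS for 3515 genes (grey, 6 of them outside the plotted range) with the translation genes in colour and black bars at the median of each length class. Ribosomal proteins other than RPS27L lie at the short end above 0, and the members below 0 are all longer than 2000 nt.

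Reads of ribosomal genes, and of some initiation genes, are also hard to assign. GENCODE names 66 pseudogenes of RPL21, 38 of RPS3A, 35 of RPL5, 17 of RPS27A, 15 each of RPL39 and RPS7, and 10 of RPS24. It names 9 of EIF4B, 5 of EIF4A2, 2 of EIF3E, and 1 each of RPS13 and RPS25. How the authors treated reads that match several copies is not given in the sources used here, so these values are uncertain to that extent. RPL21, RPL5, RPS3A, RPS13 and RPL39 also carry small nucleolar RNA genes within their bounds, and RPS13 overlaps PIK3C2A on the same strand. EIF4B overlaps AC068888.2 on the same strand, and EIF3B overlaps SNX8 on the other. Whether reads were counted by strand is not given either, so genes that overlap on the other strand may share reads.

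Among initiation genes, EIF2AK3 (ENSG00000172071, chromosome 2, 88556741 to 88627576) had the largest change of the 21. It encodes PERK, the endoplasmic reticulum kinase that phosphorylates eIF2. The gene was at 7.24, 5.01 and 3.53 CPM in PBS 10, PBS 11 and PBS 12 and at 22.1, 26.4 and 21.5 CPM in METH 1, METH 2 and METH 3. The lowest METH library was thus well above the highest PBS library, and PBS 11 was not the highest here, unlike in the other 15 members above 0. The mean rose 4.44-fold, from 5.26 ± 1.87 to 23.4 ± 2.67 CPM (SD, n = 3 each). On the log2 scale this was 2.18 with a standard error of 0.280 (limma adjusted p = 0.00371, and 0.0142 over the 15725 genes). All 6 fits without a library kept it past the threshold, with log2 fold changes from 1.93 to 2.44. None of the other eIF2 kinases was in the table.

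The eIF2B exchange factor, which recharges eIF2 and is the target of its phosphorylated form, was represented by its catalytic subunit EIF2B5. It was at 36.0, 40.9 and 50.3 CPM with PBS and 35.0, 29.4 and 27.5 CPM with METH. The highest METH value lay just below the lowest PBS value. EIF2B5 fell by 0.46 on the log2 scale (95% interval -0.93 to 0.01, limma adjusted p = 0.0875), and of the fits without a library it was past the threshold only without PBS 10 (adjusted p = 0.0582).

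EIF1B (ENSG00000114784, chromosome 3, 40309684 to 40312424), a close paralogue of the start codon selection factor EIF1, was at 67.2, 113 and 82.6 CPM with PBS and 160.5, 133 and 118 CPM with METH. The groups did not overlap, although PBS 11 came near METH 3. EIF1B rose by 0.67 on the log2 scale (standard error 0.244, limma adjusted p = 0.0557). When single libraries were left out, the gene was past the threshold only without PBS 11 or METH 3, and EIF1B-AS1 lies on its other strand.

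The eIF4F complex binds the mRNA cap and unwinds the mRNA, and of its genes and helper factors EIF4G1 fell and EIF4B rose. EIF4G1, the scaffold of the complex (ENSG00000114867, chromosome 3, 184314495 to 184335358), was at 139, 114 and 174 CPM with PBS and 101, 95.3 and 96.0 CPM with METH. All METH libraries were below all PBS libraries, and the METH libraries were much closer to each other. EIF4G1 fell by 0.53 on the log2 scale (standard error 0.214, limma adjusted p = 0.0702). EIF4B, which stimulates the RNA helicase of the complex (ENSG00000063046, chromosome 12, 53006158 to 53042209), was at 165, 214 and 169 CPM with PBS and 247, 261 and 273 CPM with METH. The groups were apart here too, and EIF4B rose by 0.52 on the log2 scale (standard error 0.208, limma adjusted p = 0.0688). EIF4A2, a form of that helicase, was at 157, 166 and 83.8 CPM with PBS and 163.5, 163.6 and 199 CPM with METH. PBS 11 overlapped METH 1 and METH 2, and the change was within the spread (log2 fold change 0.43, limma adjusted p = 0.181). EIF4A2 contains small nucleolar RNA genes and overlaps RFC4 on the other strand. Without a library, EIF4G1 was past the threshold only when PBS 10 or PBS 11 was left out, and EIF4B only when PBS 11 was.

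Subunits of eIF3, the large complex that joins the small ribosomal subunit to the mRNA, were represented by EIF3B and EIF3E. EIF3B, a core subunit, was at 110, 128 and 150.5 CPM with PBS and 99.3, 87.7 and 83.0 CPM with METH. Its METH libraries were all below its PBS libraries, and it fell by 0.52 on the log2 scale (standard error 0.205, limma adjusted p = 0.0677). EIF3E was at 167, 195 and 98.9 CPM with PBS and 219, 199.5 and 222 CPM with METH. The groups did not overlap, but PBS 12 lay far below PBS 10 and PBS 11, and the change missed the threshold (log2 fold change 0.53, 95% interval -0.08 to 1.14, limma adjusted p = 0.112). EIF3B was past the threshold without PBS 10 or PBS 11 and in no other fit that left out a library.

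**Figure D4:**
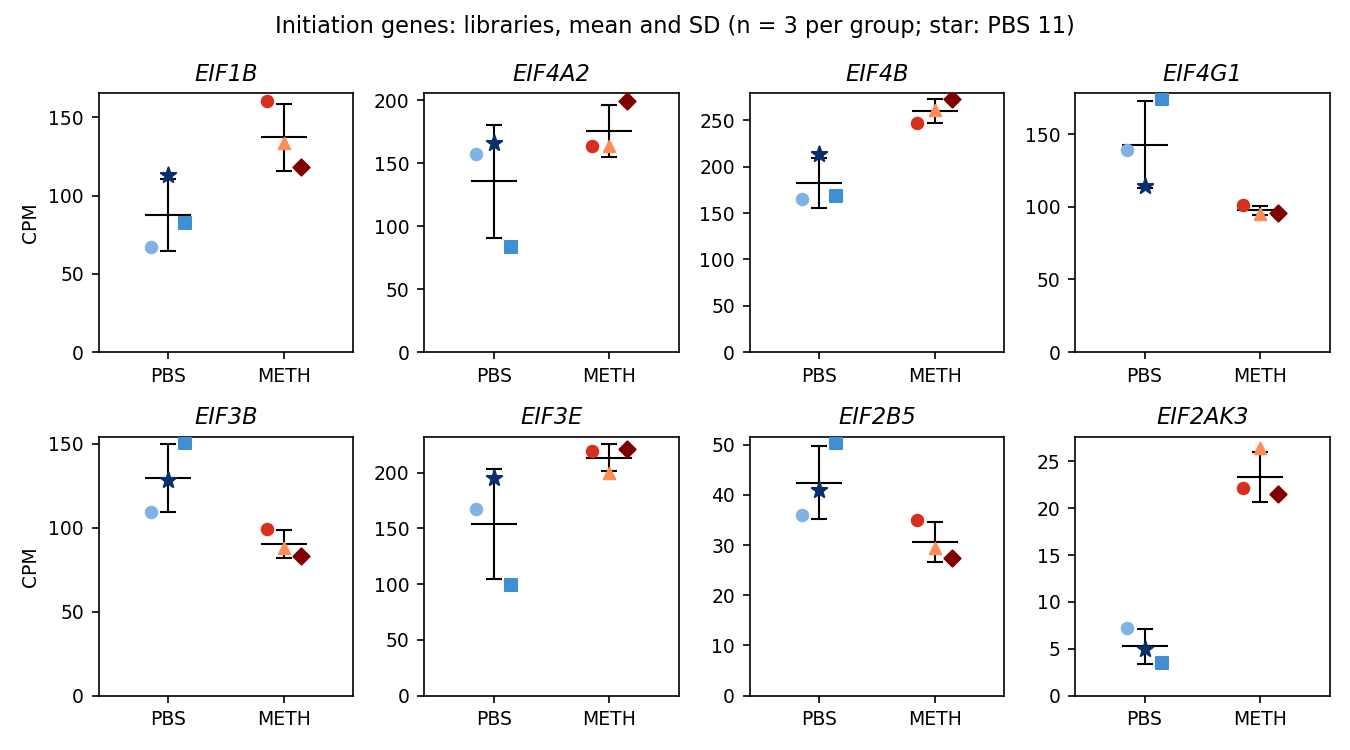
CPM of the 8 initiation genes in each library, with the mean and SD of each group as black bars (n = 3 per group), where points run from left to right as PBS 10, PBS 11 (star), PBS 12 and as METH 1, METH 2, METH 3. EIF2AK3 goes from 5.26 to 23.4 CPM on average, while the groups overlap in EIF4A2.

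EEF2KMT, the methyltransferase of elongation factor eEF2 (ENSG00000118894, chromosome 16, 5084304 to 5097808), was the sole gene of the elongation step. It was at 19.2, 23.9 and 25.8 CPM with PBS and 18.0, 16.7 and 14.2 CPM with METH, and all METH libraries were below all PBS libraries. EEF2KMT fell by 0.49 on the log2 scale (standard error 0.211, limma adjusted p = 0.0787). It was past the threshold without PBS 10 (adjusted p = 0.0483) and in none of the other fits that left out a library. ALG1 overlaps it on the other strand.

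The 2 cytosolic synthetases differed in direction. IARS, which charges isoleucine transfer RNA (ENSG00000196305, chromosome 9, 92210207 to 92293756), was at 82.1, 73.4 and 63.8 CPM with PBS and 37.7, 46.4 and 52.4 CPM with METH. No METH library reached a PBS library. The mean fell from 73.1 ± 9.13 to 45.5 ± 7.41 CPM (SD, n = 3 each). IARS thus fell by 0.69 on the log2 scale (standard error 0.208, limma adjusted p = 0.0362), and the call was lost without METH 1 or METH 2 (adjusted p up to 0.131). QARS, for glutamine, was at 212, 398 and 324 CPM with PBS and 498, 463 and 343 CPM with METH. METH 3 lay between PBS 12 and PBS 11, so the log2 fold change of 0.51 was within the spread of the libraries (limma adjusted p = 0.137).

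Promoters of the members were also searched for elements of the stress response. The element bound by ATF4, TGATGNAAN, was looked for on both strands of each promoter, from 250 bases before the start to 50 after it, and 3.61% of all promoters hold it. It was found in IARS alone of the 18 members, 14 bases before the start and on the other strand, at chr9:92293692-92293721 (minus strand), with the element in capitals:
IARS: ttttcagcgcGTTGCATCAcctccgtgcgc
The cAMP response element TGACGTCA (1.85% of promoters) and the endoplasmic reticulum stress element (ERSE, 0.0769% of promoters) were found in none of the 18, EIF2AK3 included. This says only that these letters are not in those windows.

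Genes linked to the same pathway were counted from lists of 107 names, of which 28 were in the table, with 7 that rose and 8 that fell. Of all genes tested, 33.3% rose and 35.8% fell (69.1% together), so the lists held no larger share of called genes than the table. In the mTORC1 list, 3 of 7 rose and 1 fell, a share of called genes that is below the 69.1% of the table. RRAGD, a Rag GTPase that brings mTORC1 to lysosomes, went from 6.27 ± 1.25 to 11.5 ± 0.469 CPM (SD, n = 3 each) and rose by 0.88 on the log2 scale (limma adjusted p = 0.0260). The arginine sensor CASTOR1 (log2 fold change 0.64, limma adjusted p = 0.0751) and LAMTOR5, of the lysosomal Ragulator complex (0.56, limma adjusted p = 0.0865), rose, and RPTOR, the substrate adaptor of mTORC1, fell by 0.55 on the log2 scale (limma adjusted p = 0.0529).

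In the list of the integrated stress response, which is set off by phosphorylated eIF2, 1 of 5 rose and 1 fell, also below the share in the table. PPP1R15A, which directs dephosphorylation of eIF2, was at 28.0, 113 and 59.9 CPM with PBS and 167, 110 and 79.0 CPM with METH. Its groups overlapped through PBS 11 (log2 fold change 0.98, limma adjusted p = 0.0964). ATF5, a transcription factor translated under this stress, was at 15.2, 26.4 and 24.5 CPM with PBS and 9.04, 8.21 and 6.71 CPM with METH, and fell by 1.42 on the log2 scale (limma adjusted p = 0.0103, and 0.0394 over the 15725 genes). TRIB3, DNAJC3 and NCK1 were not past the threshold (adjusted p from 0.102 to 0.263). PBS 11 was also the highest of all 6 libraries in TRIB3, at 289.6 CPM against 58.8 in PBS 10 and 147 in PBS 12.

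In the list of poly(A) binding, release and rescue 3 of 5 genes rose, against 33.3% of the table that rose and 69.1% that was called in either direction. They were PAIP2 (log2 fold change 0.56, limma adjusted p = 0.0657) and PAIP1 (0.47, adjusted p = 0.0808), which repress and stimulate translation through the poly(A)-binding protein, and DAP (0.49, adjusted p = 0.0913). ABCE1 and PABPC1 were not past the threshold. NACA and TPT1, the only genes in the table from the list of other ribosome and nascent chain genes, had log2 fold changes of 0.51 (limma adjusted p = 0.101) and 0.57 (limma adjusted p = 0.142).

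In the list of other transfer RNA charging genes, YARS2 was the 1 gene above 0 (log2 fold change 0.46, limma adjusted p = 0.103), and 6 of 9 fell, against 35.8% of the table that fell and 69.1% that was called in either direction. Among them were WARS, the cytosolic tryptophan enzyme (fell by 0.82 on the log2 scale, limma adjusted p = 0.0529), and the mitochondrial enzyme LARS2 (fell by 0.78, limma adjusted p = 0.0371). EARS2, AARS2 and FARSB, the last a subunit of the cytosolic phenylalanine enzyme, also fell, with adjusted p-values from 0.0817 to 0.0887. CARS2 and SEPSECS were not past the threshold. In WARS the highest library was again PBS 11, at 299 CPM, against 134 in PBS 10, 211 in PBS 12 and 104 to 129.8 CPM with METH. Among all genes of these lists that rose or fell, ATF5 and RRAGD were past the threshold in each of the 6 fits without a library. The others lost the call in at least 1 such fit, WARS without PBS 12, METH 1 or METH 2 and PPP1R15A without PBS 10, PBS 12, METH 1 or METH 2.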

How the data were processed

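The authors sequenced RNA on the Illumina HiSeq platform and deposited 1 table with a value per library, group means, and the fold change, log2 fold change and p-values of their DESeq2 comparison. Aligner, counter, build and annotation are not given in the sources used here. The columns are headed FPKM, but at least 99.7% of the values of each column are whole multiples of a single step (to within 0.0006), so the deposited values are CPM and were used as such, with limma as planned for either unit. The p-values of the authors, all under 0.1, served only to describe how the table was selected and how many genes were adjusted over. The table was fitted whole by limma 3.58.1 (R 4.3.3) on log2(CPM + 0.1), using a mean-variance trend, Benjamini-Hochberg adjustment and a threshold of 0.1. With 3 libraries against 3, an exact permutation test cannot go below p = 0.1, so none was used for single genes. edgeR 4.0.16 and DESeq2 1.42.0 were run on recovered reads as alternatives, beside a pseudocount of 1 or 0.01, a filter of 1 CPM, no trend, median ratio scaling, a threshold of 0.05, adjustment over 15725 genes, and each library left out. Fits were tested on simulated data. Members and lists were chosen with earlier results of these data known. Every member is named, and of the pathway lists the 3 genes with the largest change in each direction past the threshold. Other genes of those lists were named after their values were seen. Some genes that this rule or the marker list covers are not reported here. Positions come from GENCODE release 29 (GRCh38), which holds 4093 of the 4101 identifiers. Lengths are the median of the principal protein-coding transcripts. Starts come from RefSeq, matched by identifier or symbol. Figures used matplotlib 3.10.9 and Python 3.11.15.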

Additional observations from a re-analysis of the deposited data

How the results depend on the processing

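No direction changed for any of the 21 members under the alternatives, those without a library included. The members entered the table through a difference in these same libraries, so this is weak evidence of stability. Leaving out the trend, the threshold of 0.05 and adjustment over 15725 genes cannot change a direction at all. The like count for all genes of the table is not given here. The number of members that rose was 4, and it was 2 at a threshold of 0.05, 1 when adjusted over 15725 genes, 7 with DESeq2 (RPL21, RPS25 and RPS27A added) and 4 with edgeR. The number that fell was 5, and it was 3 without a trend, 1 at a threshold of 0.05, 0 when adjusted over 15725 genes (4 at an unadjusted limma p under 0.05), and 5 with edgeR or DESeq2. Over the fits that each left out a library the number that rose ranged from 1 to 16 and the number that fell from 0 to 5. The cause of these differences was not tested. Over all genes of the table, 69.1% were past the threshold in the main fit and 15.2% when adjusted over 15725 genes. Without PBS 11, 37.8% rose and 33.4% fell. For the other settings the share of all genes called is not given here, so those counts cannot be set against the table. Median ratio scaling added RPS27A to the genes that rose, and the other settings for pseudocount and filter changed no call, although the filter moved the median log2 fold change of all genes by 0.18. No paired analysis was possible because the PBS columns carry the numbers 10 to 12, which are not those of the labels. The smallest value of a member rests on 329 reads, so counting error is small beside the spread between libraries.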

Other observations

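Pseudogenes of ribosomal proteins, which the choice of members left out, were in the table with 4 that rose and 1 that fell. Of all genes in the table, 33.3% rose and 35.8% fell, and so few pseudogenes cannot be told apart from those shares. RPL21P132 fell from 2.36 ± 0.757 to 0.872 ± 0.370 CPM (SD, n = 3 each; limma adjusted p = 0.0328), while the log2 fold change of its parent RPL21 was 0.52 (limma adjusted p = 0.126). RPS27AP16 rose from 2.10 ± 0.927 to 4.30 ± 0.166 CPM (limma adjusted p = 0.0381), and RPL23AP49 from 3.42 ± 0.306 to 7.06 ± 1.67 CPM (limma adjusted p = 0.0260). RPSAP15 was at 4.69, 28.8 and 8.73 CPM in PBS 10, PBS 11 and PBS 12 and at 21.5 to 29.1 CPM with METH (log2 fold change 1.23, limma adjusted p = 0.0811), so that PBS 11 lay in the METH range here too. RPL23AP82 rose by 0.57 on the log2 scale (limma adjusted p = 0.0791). The calls for RPL21P132, RPS27AP16 and RPL23AP49 were each lost without METH 2 (limma adjusted p from 0.107 to 0.111), and those for RPSAP15 and RPL23AP82 without METH 1 or METH 2, among others. These pseudogenes were chosen after their values were seen, and the origin of their reads is uncertain.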
